A study of Mus musculus with 4 samples.

Results

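The genes described here are 10 mediators of lymphocyte killing, measured in purified splenic CD8 T cells after mice were given the dioxin TCDD or its solvent. They are the granzyme genes Gzma, Gzmb, Gzmk and Gzmm, the perforin gene Prf1, the death ligand gene Fasl, the cytokine gene Ifng, the chemokine gene Ccl5, and the granule genes Nkg7 and Ctsw. The platform annotation maps 12 of the 22626 probe sets tested to exactly 1 of these genes, and where a gene has several probe sets its main probe set is the one highest on average, so 10 of 12393 named genes are described. The TCDD mice were C57BL/6 females, 8 to 12 weeks old, that were given an intraperitoneal dose of 10 µg/kg and examined 24 h later. The DMSO mice were C57BL/6 females of the same age range that received DMSO intraperitoneally and were examined after the same time. Each treatment has 2 arrays, and per the design text cells of 4 mice were pooled for a group. The sources used here do not say whether both arrays of a treatment came from separate pools, so the tests weigh differences only against the spread of these arrays, which may be technical. Pooling also removes any view of single animals.

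Cytotoxic lymphocytes kill by releasing granules that hold perforin and granzymes. Perforin forms pores in the target cell membrane, and the granzymes, a family of serine proteases, enter and cleave proteins that set off cell death. Another route uses Fas ligand on the killer cell to engage the Fas receptor on the target. In the spleen of an uninfected mouse most CD8 T cells are naive and hold little of these products, while memory CD8 T cells and NK cells carry more. TCDD binds the aryl hydrocarbon receptor (AHR), a transcription factor that binds DNA at a short core element when it is activated. The comparison asks whether these transcripts differed between CD8 T cells of TCDD-treated and of DMSO-treated mice.

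None of the 10 genes differed between TCDD and DMSO by more than the arrays of a treatment differed from each other. The limma test, adjusted over all probe sets, called 0 of the 10, with adjusted p between 0.9973 and 0.9989, and it called 0.0% of all probe sets. At an unadjusted limma p under 0.05 there were also 0 members, where 2.11% of named genes passed, and the lowest unadjusted p of a member was 0.3548. TCDD and DMSO arrays overlapped for all 10 members. The TCDD arrays were both above the DMSO arrays for 0 members and for 12.9% of named genes, and both below for 0 members and for 12.0% of named genes. Differences are given as TCDD minus DMSO in log2 units of the deposited RMA values. They were above 0 for 3 members and below 0 for 7, with a median of −0.035, beside a median of 0.01 over all named genes. An exact two-sided permutation test of 2 arrays against 2 cannot go below 0.3333, so none was run on single genes.

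**Figure D1:**
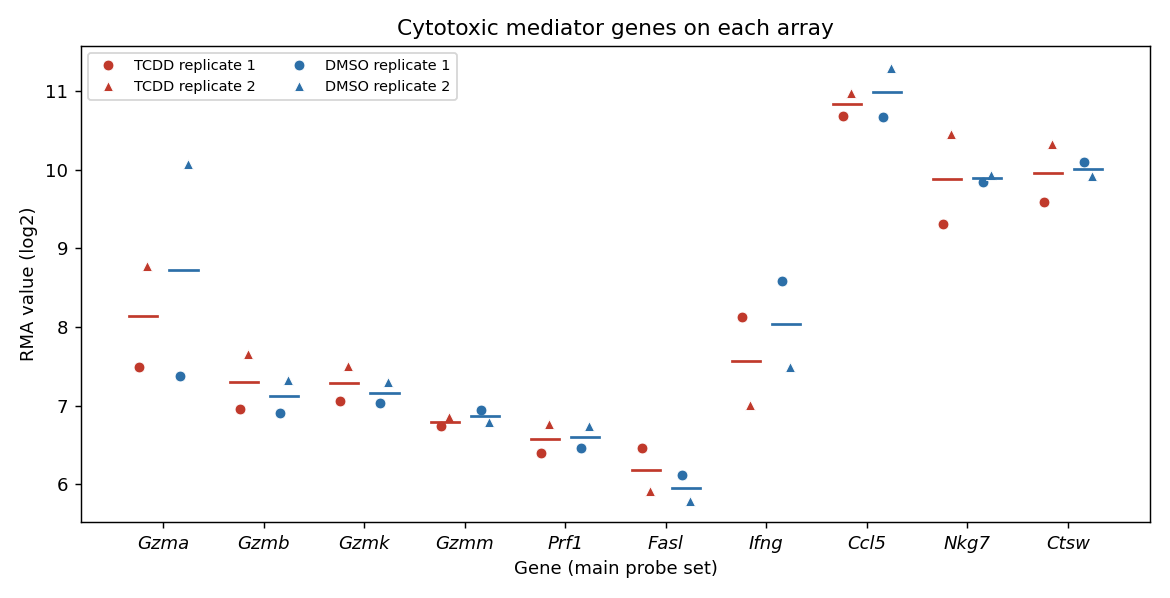
RMA values (log2) of the main probe set of each of the 10 genes on the 4 arrays, with circles for replicate 1, triangles for replicate 2 and a short line at the mean of each treatment (n = 2). The TCDD and DMSO symbols overlap for every gene, and the widest spread is that of Gzma, with 10.07 in DMSO replicate 2 and 7.37 in DMSO replicate 1.

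Gzma, which encodes a granzyme that cleaves after basic residues, had the widest spread of the members. Its values were 7.49 in TCDD replicate 1, 8.78 in TCDD replicate 2, 7.37 in DMSO replicate 1 and 10.07 in DMSO replicate 2, and in the pairs of values that follow replicate 1 is given before replicate 2. The highest value was in DMSO replicate 2 and the lowest in DMSO replicate 1, so both TCDD values lay between the DMSO values. The means were 8.14 ± 0.91 for TCDD and 8.72 ± 1.91 for DMSO (SD, n = 2 each). The difference was −0.585, with 95% limits of −3.14 and 1.97 from limma, which correspond to 0.114-fold and 3.91-fold. Without DMSO replicate 2 the difference turned to 0.765, and without TCDD replicate 1 it was 0.06. It was −1.23 without TCDD replicate 2 and −1.935 without DMSO replicate 1.

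The gap of 2.70 between the DMSO arrays for Gzma was matched or exceeded by 0.0403% of named genes, that is by 5 genes with Gzma included. The other 4, chosen after their values were seen, were Rgs1, S100a8, S100a9 and Igha. S100a8 and S100a9, which encode the calprotectin subunits of neutrophils, were highest in the array in which Gzma was highest. S100a8 measured 5.55 and 5.94 in the TCDD arrays against 5.45 and 8.67 in the DMSO arrays, and S100a9 measured 5.0 and 5.63 in the TCDD arrays against 4.61 and 7.80 in the DMSO arrays. Igha, the heavy chain constant gene of the IgA antibody, measured 7.09 and 8.85 in the TCDD arrays against 6.97 and 10.06 in the DMSO arrays. Igha, S100a8, S100a9 and Ccl5, a member described below, had the same order of the 4 arrays as Gzma. Igha, S100a8 and S100a9 were chosen by their wide DMSO gap, so their shared order is partly a product of that choice. Among the listed genes, the memory and effector markers Klrg1, Klrd1 and S1pr5 and the granule gene Ctsc also had this order. So did the neutrophil markers Ngp, Ltf and Mmp9 and the macrophage marker C1qb. They are named after their values were seen, and most genes of those lists had another order. The share of all named genes with this order is not given here. Rgs1, a regulator of G protein signalling, went the other way within both treatments, at 9.94 and 6.56 in the TCDD arrays against 9.94 and 6.68 in the DMSO arrays. Over the 10 measured neutrophil markers the summed linear RMA value was 589 and 690 in the TCDD arrays and 582 and 1289 in the DMSO arrays. Without S100a8 and S100a9, left out after their values were seen, the sum of the other 8 was 510 and 579 in the TCDD arrays and 514 and 659 in the DMSO arrays. The part of neutrophil or plasma cell RNA, or of memory and effector CD8 T cells, in the Gzma value was not tested. In sorted but pooled cells such as these, more cells of a type and more RNA per cell cannot be told apart.

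Gzmb, the granzyme that cleaves after aspartate and activates caspases, was higher in replicate 2 than in replicate 1 of both treatments. It measured 6.95 and 7.65 in the TCDD arrays and 6.91 and 7.33 in the DMSO arrays, so the lower values of both treatments lay close together and the TCDD range held most of the DMSO range. The difference was 0.18, with limits of −0.56 and 0.92. It was −0.17 without TCDD replicate 2 and −0.03 without DMSO replicate 1. Gzmk, a tryptase-like granzyme found in memory CD8 T cells, had the same order of the 4 arrays as Gzmb. It measured 7.06 and 7.50 in the TCDD arrays and 7.03 and 7.30 in the DMSO arrays. Its difference was 0.115 (limits −0.39 and 0.62). It changed to −0.105 when TCDD replicate 2 was left out and to −0.02 when DMSO replicate 1 was.

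Gzmm, a granzyme with a preference for methionine and leucine, varied least of the members. It measured 6.74 and 6.85 in the TCDD arrays and 6.94 and 6.79 in the DMSO arrays, and all 4 values lay within a narrow band. The means were 6.80 ± 0.078 for TCDD and 6.87 ± 0.106 for DMSO (SD, n = 2 each), and the difference was −0.07. The limits of −0.37 and 0.23 are the narrowest of the 10 genes and leave a rise above 1.18-fold outside the interval. Without DMSO replicate 1 the difference was 0.005.

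Prf1 encodes perforin, the pore-forming protein that lets granzymes reach the target cell. Its main probe set measured 6.39 and 6.77 in the TCDD arrays and 6.46 and 6.74 in the DMSO arrays, so the DMSO values lay inside the TCDD range. The difference was −0.02, with limits of −0.50 and 0.46, and it was 0.17 without TCDD replicate 1 and 0.12 without DMSO replicate 2. The other probe set of Prf1 measured 5.58 and 5.68 in the TCDD arrays and 5.43 and 5.89 in the DMSO arrays, a difference of −0.03, and its mean of 5.65 lay below the median of 6.01 over the means of all probe sets. RMA values near the low end do not separate weak expression from none. Both probe sets of Prf1 had overlapping groups.

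Nkg7 and Ctsw are expressed in CD8 T cells and NK cells. Nkg7 encodes a granule membrane protein that takes part in granule release, and Ctsw encodes cathepsin W, a cysteine protease. Nkg7 measured 9.31 and 10.45 in the TCDD arrays and 9.85 and 9.93 in the DMSO arrays. The TCDD arrays held the lowest and the highest value, and the DMSO arrays differed by 0.08. The difference of the means was −0.01, with limits of −1.01 and 0.99, and it ran from −0.58 without TCDD replicate 2 to 0.56 without TCDD replicate 1. It was 0.03 without DMSO replicate 2. Ctsw had the same form, with 9.59 and 10.33 in the TCDD arrays around 10.10 and 9.92 in the DMSO arrays. Its difference was −0.05, with limits of −0.75 and 0.65. It was 0.32 without TCDD replicate 1, −0.42 without TCDD replicate 2 and 0.04 without DMSO replicate 1.

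The promoter windows of Gzma, Gzmb, Gzmm and Prf1 are shown because Gzma has the widest spread, Gzmb and Prf1 are the central effectors of granule killing, and Gzmm has, in the first of its 2 windows, the only AHR core found among the members searched. Sequences are from RefSeq on the build GRCm38.p6, from 250 bases before to 50 after the gene start, 5′ to 3′ on the gene's strand. Capitals mark a match on either strand to the AHR core GCGTG, the RUNX word TGTGGT, the T-box core AGGTGT or the AP-1 word TGANTCA. RUNX and T-box factors are known to regulate cytotoxic genes in CD8 T cells. The windows lie at chr13:113100932-113101231 on the minus strand for Gzma, chr14:56262285-56262584 on the minus strand for Gzmb, chr10:79688770-79689069 on the plus strand for Gzmm and chr10:61297586-61297885 on the plus strand for Prf1.
Gzma: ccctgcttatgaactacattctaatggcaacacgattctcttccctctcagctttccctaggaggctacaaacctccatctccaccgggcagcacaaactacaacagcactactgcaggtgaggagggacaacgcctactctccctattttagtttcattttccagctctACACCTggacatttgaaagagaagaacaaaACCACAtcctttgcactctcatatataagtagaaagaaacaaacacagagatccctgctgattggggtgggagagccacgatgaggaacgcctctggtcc
Gzmb: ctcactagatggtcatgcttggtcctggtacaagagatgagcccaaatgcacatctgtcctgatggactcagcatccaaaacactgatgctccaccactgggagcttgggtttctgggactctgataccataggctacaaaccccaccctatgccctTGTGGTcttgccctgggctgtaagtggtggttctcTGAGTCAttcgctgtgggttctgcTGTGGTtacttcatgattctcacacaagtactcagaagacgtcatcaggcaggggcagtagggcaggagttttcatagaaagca
Gzmm: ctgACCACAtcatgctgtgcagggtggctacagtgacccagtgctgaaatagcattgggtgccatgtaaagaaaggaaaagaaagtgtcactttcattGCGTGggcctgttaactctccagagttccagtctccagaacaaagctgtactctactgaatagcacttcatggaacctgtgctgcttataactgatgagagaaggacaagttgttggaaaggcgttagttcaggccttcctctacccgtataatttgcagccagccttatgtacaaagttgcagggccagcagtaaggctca
Prf1: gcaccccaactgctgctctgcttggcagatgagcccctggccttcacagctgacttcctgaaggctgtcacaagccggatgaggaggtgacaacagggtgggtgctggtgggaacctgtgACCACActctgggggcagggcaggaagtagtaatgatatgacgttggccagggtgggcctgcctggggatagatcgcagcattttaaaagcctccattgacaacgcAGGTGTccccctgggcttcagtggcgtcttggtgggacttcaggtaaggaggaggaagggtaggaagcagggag

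RefSeq windows were matched for 8 of the 10 members, with 9 windows in all because Gzmm has 2. The AHR core was found in 1 of the 9 windows, the first window of Gzmm, and in 32.4% of all 32851 promoter windows of the same length. The RUNX word was found in 5 of the 9 windows, against 16.8% of all windows, and the T-box core in 4 of the 9, against 13.7%. The AP-1 word was found in 1, that of Gzmb, against 7.81%. Gzma, Prf1 and Nkg7 each held 1 RUNX and 1 T-box match, Gzmb held 2 RUNX matches and Gzmk held 2 T-box matches. No searched word was found in the windows of Fasl and Ifng, which says only that these letters are not in these windows. A match is a description of the sequence, and no binding was measured. Gzmm, with the AHR core, differed by −0.07 between TCDD and DMSO, as given above.

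Fasl encodes Fas ligand, which triggers death through the Fas receptor. It measured 6.46 and 5.91 in the TCDD arrays and 6.11 and 5.79 in the DMSO arrays, with the highest value in TCDD replicate 1. It was lower in replicate 2 than in replicate 1 of both treatments, the opposite of Gzma, Gzmb, Gzmk and Prf1. The difference of 0.235 was the highest among the members, with limits of −0.36 and 0.83, and it was −0.04 without TCDD replicate 1. The mean of 6.07 lay just above the median of all probe sets. The other probe set, with a mean of 5.50, measured 5.57 and 5.53 in the TCDD arrays and 5.30 and 5.61 in the DMSO arrays, a difference of 0.095.

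Ifng encodes interferon gamma, the cytokine by which CD8 T cells activate macrophages and raise antigen presentation. It measured 8.12 and 7.01 in the TCDD arrays and 8.58 and 7.49 in the DMSO arrays. Within both treatments replicate 2 was lower by more than 1 log2 unit, by 1.11 in the TCDD arrays and by 1.09 in the DMSO arrays. The groups overlapped, with means of 7.57 ± 0.78 for TCDD and 8.04 ± 0.77 for DMSO (SD, n = 2 each). The difference was −0.47, with limits of −1.82 and 0.88, which correspond to 0.284-fold and 1.84-fold. It turned to 0.085 without TCDD replicate 2 and to 0.075 without DMSO replicate 1, and it was −1.025 without TCDD replicate 1 and −1.015 without DMSO replicate 2.

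Ccl5 encodes a chemokine that memory CD8 T cells store as transcript and that draws T cells and monocytes. It measured 10.69 and 10.98 in the TCDD arrays and 10.67 and 11.30 in the DMSO arrays, and both TCDD values lay between the DMSO values, as for Gzma. The difference was −0.15, with limits of −0.79 and 0.49. Without DMSO replicate 2 it was 0.165, and without DMSO replicate 1 it was −0.465.

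**Figure D2:**
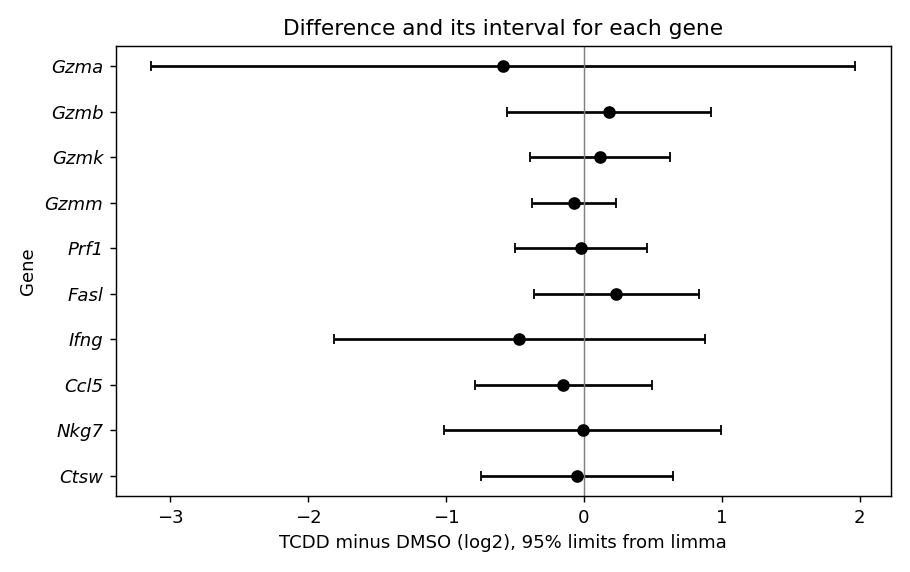
TCDD minus DMSO difference of each gene (log2, points) with 95% limits from limma (bars, 2 arrays per treatment). All 10 intervals include 0, from the narrowest for Gzmm (−0.37 to 0.23) to the widest for Gzma (−3.14 to 1.97).

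The limits of 7 of the 10 genes lay within 2-fold in both directions. The exceptions were Gzma, Ifng and Nkg7, with lower limits of 0.114-fold, 0.284-fold and 0.495-fold. For these 3 genes the intervals include differences of over 2-fold. How many of all named genes had limits within 2-fold is not given here. RMA compresses differences of weak probe sets, so narrow limits in RMA values need not be narrow for the transcript. The sign of the difference changed for each of the 10 genes when at least 1 array was left out. The share of all named genes that did so is not given here.

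**Figure D3:**
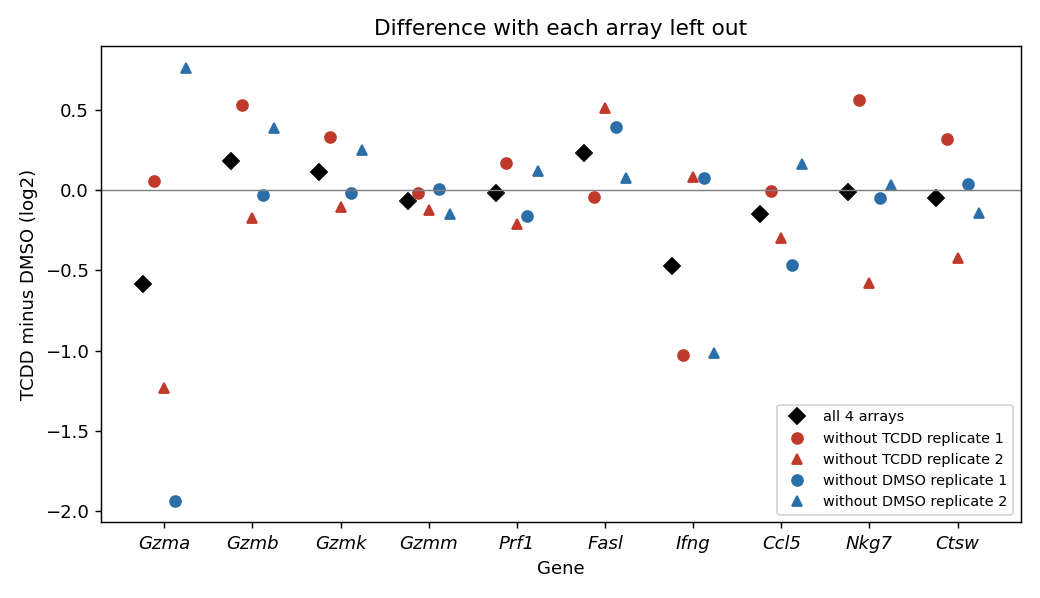
TCDD minus DMSO difference (log2) of each gene with all 4 arrays (black diamonds) and with each array left out in turn (red for a TCDD array, blue for a DMSO array, circles for replicate 1, triangles for replicate 2). For each gene the 5 symbols lie on both sides of 0, from −1.935 to 0.765 for Gzma.

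The gap between arrays of the same treatment was larger than the difference between treatments for all 10 members, which also held for 84.2% of named genes. The median gap of the members was 0.625 for TCDD and 0.30 for DMSO, and the median size of their differences was 0.133. Over the 7390 named genes whose mean lay above the median of 6.01, as that of all 10 members did, these values were 0.21, 0.16 and 0.11. For Nkg7 the TCDD gap of 1.14 was matched or exceeded by 1.35% of named genes, while its DMSO gap was matched or exceeded by 68.6%. For Ifng these shares were 1.44% and 0.992%. Gzma, Gzmb, Gzmk, Prf1, Ccl5 and Nkg7 were higher in replicate 2 than in replicate 1 of both treatments, which is 6 of the 10 members, where 29.5% of named genes did so. Ifng and Fasl were lower in replicate 2 of both treatments, where 19.3% of named genes did so. Gzmm and Ctsw were higher in replicate 2 of TCDD and lower in replicate 2 of DMSO. The labels do not say that a replicate number marks a shared batch or day.

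**Figure D4:**
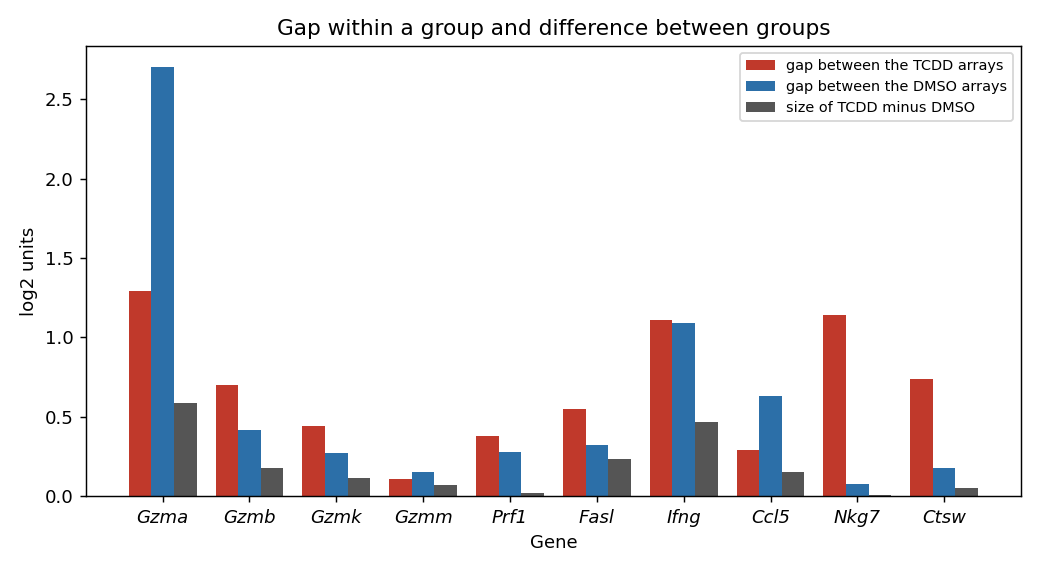
Gap between the TCDD arrays (red), gap between the DMSO arrays (blue) and size of the TCDD minus DMSO difference (grey) for each gene, in log2 units. At least 1 gap exceeds the difference for each of the 10 genes, and the DMSO gap of 2.70 for Gzma is the widest.

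The sorted cells carried the defining transcripts of CD8 T cells. The 9 measured T cell identity genes were all above the median level of 6.01, among them Cd8a, the CD8 alpha chain, at 8.17 and 8.74 in the TCDD arrays and 8.91 and 9.46 in the DMSO arrays, and the glycoprotein gene Thy1 at 9.70 and 9.46 in the TCDD arrays and 10.34 and 10.22 in the DMSO arrays. The TCDD arrays were both below the DMSO arrays for 4 of the 9, these 2 included, where 12.0% of named genes were, and limma called 0 of them (adjusted p = 0.9973 for Cd8a). At an unadjusted limma p under 0.05 there were 2 of the 9, Cd8a and Thy1, beside 2.11% of named genes. NK cells share the granzymes, perforin, Ccl5 and Nkg7 with CD8 T cells, so NK markers are given here. Of 8 measured NK markers 6 were below that level, among them Ncr1, an activating receptor of NK cells, at 5.24 and 5.31 in the TCDD arrays and 5.35 and 5.24 in the DMSO arrays. The 2 above it were the adaptor genes Tyrobp, at 7.35 and 7.58 in the TCDD arrays and 7.18 and 7.36 in the DMSO arrays, and Fcer1g, at 5.90 and 6.13 in the TCDD arrays and 6.02 and 6.31 in the DMSO arrays. Myeloid cells also express both. The summed linear value of the 8 NK markers was 418 and 464 in the TCDD arrays and 405 and 430 in the DMSO arrays. Without Tyrobp and Fcer1g the other 6 summed to 195 and 202 in the TCDD arrays and 195 and 186 in the DMSO arrays, near the low end where RMA compresses differences. Of these 6, the NK cell receptor genes Klra8 and Klra1 had their lowest and highest values in the arrays where Gzma had them. They are named after their values were seen. Klra8 measured 4.26 and 4.22 in the TCDD arrays and 3.94 and 4.61 in the DMSO arrays. Klra1 measured 3.59 in both TCDD arrays and 3.51 and 3.62 in the DMSO arrays. The others went differently. Klrb1b, Itga2 and Cma1 were lowest in the array where Gzma was highest, and Ncr1 was highest in the array where Gzma was lowest. The part of NK cell RNA in the values of the members was not tested.

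Markers of other cells were present and varied between arrays. The summed linear value of 10 B cell markers was 4825 and 2899 in the TCDD arrays and 4069 and 1636 in the DMSO arrays, and the MHC class II genes H2-Aa and H2-Eb1 had the highest means. Without these and H2-Ab1, which dendritic cells and macrophages also express, the other 7 summed to 365 and 456 in the TCDD arrays and 388 and 401 in the DMSO arrays, higher in replicate 2 of both treatments. For the 6 dendritic cell markers it was 690 and 480 in the TCDD arrays and 600 and 349 in the DMSO arrays, with the highest means for Irf8 and Itgax. For the 5 CD4 T cell markers the sum was 1018 and 531 in the TCDD arrays and 833 and 505 in the DMSO arrays, with the highest means for Ctla4 and Zbtb7b. Ctla4, an inhibitory receptor of activated T cells, measured 9.28 and 6.07 in the TCDD arrays and 8.70 and 6.46 in the DMSO arrays. Without Ctla4 the other 4 summed to 397 and 464 in the TCDD arrays and 417 and 416 in the DMSO arrays, and Cd4 itself measured 6.80 and 7.23 in the TCDD arrays and 7.04 and 7.06 in the DMSO arrays. For the 11 monocyte and macrophage markers, with the highest means for Mpeg1 and Csf1r, the sum was 1482 and 1309 in the TCDD arrays and 1170 and 1168 in the DMSO arrays. The 4 mast cell and basophil markers, among them Cpa3 and Mcpt8, were all below the median level. The neutrophil markers with the highest means were Elane and Ngp. Elane measured 6.73 and 7.05 in the TCDD arrays and 6.94 and 6.98 in the DMSO arrays. Ngp measured 6.35 and 6.58 in the TCDD arrays and 6.21 and 6.89 in the DMSO arrays. The part of other cells in the values of the 10 members was not tested.

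The other genes of the cytotoxic pathway were followed in 10 lists, with 93 of 105 genes measured, and limma called 0 of them in either direction. At an unadjusted limma p under 0.05 there were 4 of the 93, beside 2.11% of named genes. These were Lyst, Stat4, Tgfb1 and Igfbp4, each lower in TCDD. The TCDD arrays were both above the DMSO arrays for 7 of the 93, or 7.53%, and both below for 17, or 18.3%, beside 12.9% and 12.0% of all named genes. The median difference of the 93 was −0.02. All 6 other granzyme genes, Gzmc, Gzmd, Gzme, Gzmf, Gzmg and Gzmn, were below the median level, with differences between −0.08 and 0.04 and overlapping groups. In mice these granzymes are known from strongly activated lymphocytes.

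Granule formation and release were covered by 16 measured genes, with a median difference of 0.0. Both TCDD arrays were above both DMSO arrays for 3 and below for 2, beside 12.9% and 12.0% of named genes. The largest difference above the median level was that of Lyst, which encodes a regulator of lysosome-related granules. Lyst measured 7.66 and 7.49 in the TCDD arrays and 7.87 and 8.42 in the DMSO arrays, a difference of −0.57 with limits of −1.12 and −0.017 (limma adjusted p = 0.9973). Calr, which encodes the chaperone calreticulin, measured 9.39 and 8.89 in the TCDD arrays and 9.31 and 9.91 in the DMSO arrays, a difference of −0.47 with overlapping groups. Among 4 measured genes of serpins that inhibit proteases such as granzyme B, the largest differences were −0.245 for Serpinb6a and −0.15 for Serpinb9b, and the groups overlapped for all 4.

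The death receptor list had 8 measured genes and a median difference of −0.088. Casp8, the initiator caspase downstream of Fas, measured 7.97 and 8.00 in the TCDD arrays and 8.21 in both DMSO arrays, a difference of −0.225 (limma adjusted p = 0.9973). The difference between treatments was larger than the gap within either of them for this gene. A gap within a treatment was the larger for 84.2% of named genes, so Casp8 was among the remainder. Tnfrsf1a, a receptor of TNF, differed by −0.255 with overlapping groups. Among 11 other effector cytokines and chemokines the median was −0.08. Ccl3, a chemokine made by activated CD8 T cells, measured 5.95 and 6.23 in the TCDD arrays and 6.36 and 6.64 in the DMSO arrays, a difference of −0.41, and Il16 differed by 0.19. The receptors of CCL5 were represented by 2 genes, both below the median level.

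Genes of the interferon gamma receptor and its direct response, 13 of them measured, had a median difference of −0.015, beside −0.47 for Ifng itself. The GTPase genes Igtp and Gbp2 had the largest differences above the median level, at −0.34 and −0.22. Gbp2 measured 7.11 and 7.07 in the TCDD arrays and 7.32 and 7.30 in the DMSO arrays, with both TCDD arrays below both DMSO arrays. Igtp measured 7.96 and 8.73 in the TCDD arrays and 8.42 and 8.95 in the DMSO arrays, and its groups overlapped.

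Regulators of the cytotoxic program, 17 of them measured, had a median difference of 0.075. Both TCDD arrays were above both DMSO arrays for 2 and below for 5, beside 12.9% and 12.0% of named genes. Tbx21, which encodes the T-box factor T-bet, measured 6.94 and 7.01 in the TCDD arrays and 7.22 and 8.21 in the DMSO arrays, a difference of −0.74 with limits of −1.62 and 0.14 (limma adjusted p = 0.9973). Like Gzma, it was highest in DMSO replicate 2, as were 24.4% of named genes, and a link to Gzma was not tested. Bhlhe40, a transcription factor of activated T cells, differed by 0.645 with overlapping groups, at 8.07 and 6.58 in the TCDD arrays and 7.23 and 6.13 in the DMSO arrays. Eomes, the T-box factor of memory CD8 T cells, measured 8.49 and 8.16 in the TCDD arrays and 8.60 and 8.57 in the DMSO arrays, a difference of −0.26. The 13 measured memory and effector markers had a median of −0.155, and the cytokine receptor gene Il18r1 differed by 0.185. Both TCDD arrays were above both DMSO arrays for 0 of the 13 and below for 3. The summed linear value of the 13 was 4192 and 4190 in the TCDD arrays and 4016 and 4449 in the DMSO arrays. The 6 measured naive markers had a median of −0.208, with Igfbp4 at −0.475 and the egress receptor gene S1pr1 at −0.405. Both TCDD arrays were below both DMSO arrays for these 2 of the 6. Igfbp4 measured 10.19 and 10.03 in the TCDD arrays and 10.50 and 10.67 in the DMSO arrays.

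**Figure D5:**
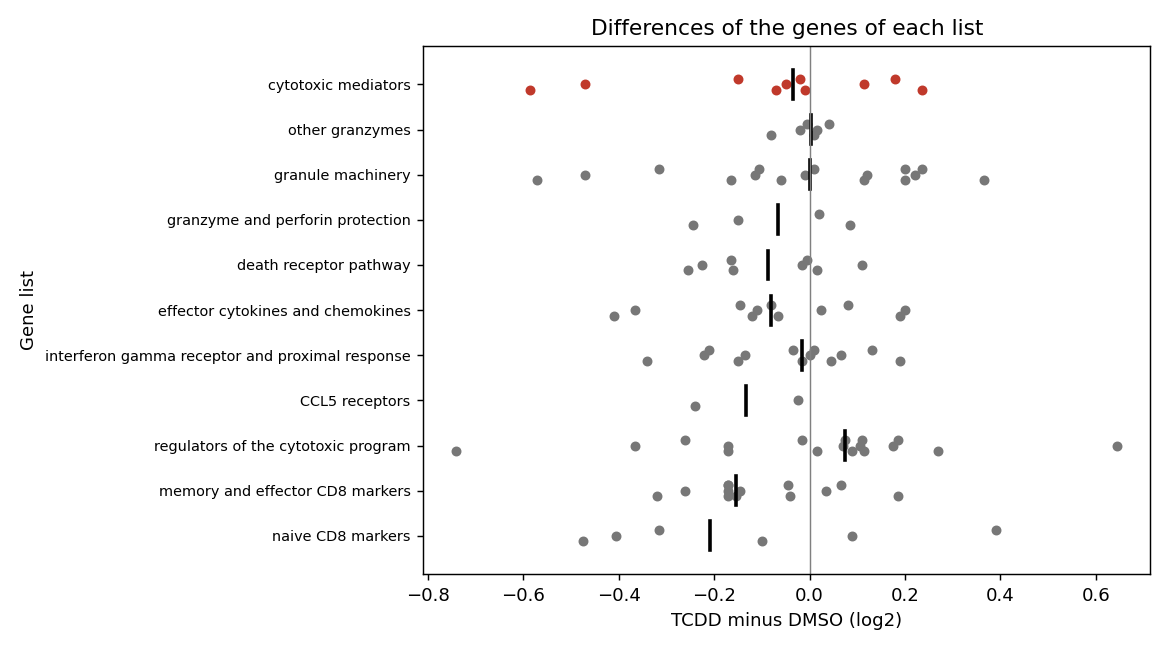
TCDD minus DMSO difference (log2) of each gene of the 10 cytotoxic mediators (red) and of 10 lists of related genes (grey), with a black bar at the median of each list. The medians lie between −0.208 for the naive CD8 markers and 0.075 for the regulators, and that of the 10 mediators is −0.035.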

How the data were processed

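Sorted splenic CD8 T cells were profiled on Affymetrix arrays, 2 for TCDD and 2 for DMSO, grouped by their titles. Per the labels' protocols, FACS gave a purity above 99% and RNA was amplified before labelling. The authors deposited log2 expression values, 1 per probe set and array, made with RMA (version not stated) per the submitters' processing notes. That the scale is log2 follows from the range of 3.09 to 14.62. Array medians were 5.97 and 6.03 (TCDD) and 5.99 and 6.01 (DMSO). RMA compresses differences of weak probe sets. Precision is limited by having 4 arrays.

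Of 22690 probe sets, 64 controls were left out. Of the 22626 tested, the platform annotation gave 1 symbol to 20380, several to 691 and none to 1555, and symbols were updated by Entrez identifier from RefSeq. TCDD and DMSO were compared by lmFit and eBayes (limma 3.58.1, R 4.3.3) without covariates or a filter, at a Benjamini-Hochberg adjusted p of 0.05 over all probe sets, with 95% limits. The fit was tested on simulated data with independent noise on each array. That simulation held no effect shared by same-numbered arrays, so it does not cover such effects. The members, lists and tests were chosen with earlier results of these data known. Besides the members, the text names from each pathway list the 2 genes with the largest difference above the median level, and from each marker list of other cells the 2 genes with the highest mean; for the T cell identity list the first rule was used. Genes named outside this rule are Rgs1, S100a8, S100a9, Igha, H2-Ab1, Cd4, Stat4, Tgfb1 and the NK markers Ncr1, Klra1, Klra8, Klrb1b, Itga2 and Cma1. Klrg1, Klrd1, S1pr5, Ctsc, Ltf, Mmp9 and C1qb were named outside this rule too. The 6 other granzyme genes are also outside it and are given as a whole list. Summed linear values add 2 to the power of the RMA value over a list. Alternatives were median centring, quantile normalisation, filters on dim probe sets, a variance trend, array weights, removal of _s_at and _x_at probe sets, gene means, a replicate block and each array left out.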

Additional observations from a re-analysis of the deposited data

How the results depend on the processing

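Under each of the 9 settings that kept all arrays, and with each array left out, limma called 0 members and 0 probe sets, with a lowest adjusted p of 0.7954 over all settings. At an unadjusted p under 0.05 there were 439 probe sets in the reported fit, 612 with the replicate block and between 116 and 1079 with an array left out. Of the 90 member differences under those 9 settings 1 changed sign, that of Nkg7, to 0.016 after a further quantile normalisation. Groups that did not overlap numbered 0 in the reported fit and 1 when the probe sets of a gene were averaged, where Fasl measured 6.02 and 5.72 in the TCDD arrays against 5.71 and 5.70 in the DMSO arrays. With an array left out, a lone array is assumed to vary like the other treatment. The number without overlap then ran from 3 to 6, since fewer values have to be apart, and 17 of 40 differences changed sign. The shares of all named genes under these settings are not given here, so these counts do not set the members apart. With an array left out, the median over the members ran from −0.19 to 0.115. The differences ran from −1.935 to 0.765 for Gzma, −0.17 to 0.53 for Gzmb, −0.105 to 0.335 for Gzmk, −0.145 to 0.005 for Gzmm, −0.21 to 0.17 for Prf1, −0.04 to 0.51 for Fasl, −1.025 to 0.085 for Ifng, −0.465 to 0.165 for Ccl5, −0.58 to 0.56 for Nkg7 and −0.42 to 0.32 for Ctsw. The replicate numbers are not stated to pair the arrays. Over probe sets the deviations of same-numbered arrays from their group means correlated at 0.23. With the replicate block the median stayed at −0.035 and 0 members passed, and Ifng, at −0.47 with limits of −0.775 and −0.165, was the 1 member at an unadjusted p under 0.05 (limma adjusted p = 0.9942). Nkg7 was the 1 such member without TCDD replicate 1, at 0.56, and without TCDD replicate 2, at −0.58, and no member was in the reported fit or under the other settings.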
